A study of Mus musculus with 11 samples.

Results

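A set of 10 genes of blood vessel tone and blood pressure, namely *Ednra*, *Ednrb*, *Agtr1a*, *Adra1a*, *Adra1b*, *Adra2b*, *Gucy1a3*, *Gucy1b3*, *Adm* and *Ace*, were followed through the mesenchymal cells of mouse liver. They were chosen by symbol, and all 10 were found among the 27998 genes of the droplet gene list and among the 24489 genes of the plate tables. Endothelins, angiotensin II and catecholamines make mural cells contract by acting on receptors that couple to G proteins, while nitric oxide makes them relax by activating soluble guanylate cyclase, an enzyme built of an alpha and a beta subunit. Adrenomedullin is a secreted peptide that widens vessels, and angiotensin-converting enzyme cleaves angiotensin I to angiotensin II. In the liver, hepatic stellate cells (HSCs) lie along the sinusoids, store retinoid, and are known to contract in response to endothelin and angiotensin and to make collagen after injury.

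All cells came from adult male *Pdgfrb*-BAC-eGFP mice on a C57BL/6 background, whose *Pdgfrb* regulatory sequence drives GFP in mesenchymal cells, and GFP+ CD45- CD102- cells were sorted. The 5 droplet (10x) libraries, each of 3 pooled mice, held cells of uninjured liver in isolations labelled HSC and PF, of liver 72 h after a single dose of carbon tetrachloride (CCl4) in the HSC isolation, and of liver after 6 weeks of repeated CCl4 in both isolations. No genetic change beyond the reporter is stated for the mice. Uninjured mice are labelled healthy, and no treatment or vehicle is stated for them. A library of pooled mice gives no value per mouse. On the 6 Smart-seq2 plates were single cells from uninjured liver, from liver 14 days after bile duct ligation (BDL) and from liver after 6 weeks of CCl4, nearly all from the PF isolation, with HSC isolation wells only among the uninjured wells of plate 6. The PF isolation yields fibroblasts (FBs) and vascular smooth muscle cells (VSMCs), and the HSC isolation is built to enrich HSCs.

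The 5 libraries kept 5454 to 7310 cells with 25962957 to 86661230 unique molecular identifiers (UMIs), and the medians were 4299 to 11343.5 UMIs per cell. Pairs of libraries shared 33 to 74 cell barcodes. Clusters were named from marker genes, which left 6843, 7120 and 4650 HSC-like cells in the uninjured, 72 h and 6-week HSC libraries, and 4060 and 2647 FB-like and 1673 and 3001 VSMC-like cells in the uninjured and 6-week PF libraries. Levels of the markers used for naming describe the labels and are no check of them. *Reln*, *Vipr1* and *Colec11* were at 1406, 803 and 6443 UMIs per 1000000 (CPM) in uninjured HSC-like cells. *Clec3b* was at 3000 CPM in FB-like cells, and *Acta2* was at 15159 CPM in VSMC-like cells. One cluster of 776 cells in the 6-week HSC library, c13, had FB markers such as *Dpt* (651 CPM) and *Gpx3* (995 CPM) beside HSC markers. Over the full lists, the mean of markers, each relative to its highest cluster, was 0.342 for HSC and 0.113 for FB. The HSC-like clusters c2 and c8 were at 0.306 and 0.253 for HSC. Cluster c13 was left unnamed because the genes that set it most apart held the mesothelial marker *Wt1* and no HSC marker. Hepatocyte, endothelial, leucocyte, cholangiocyte, Schwann and mesothelial marker lists summed to at most 130 CPM in any type of any library.

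The genes lie on 7 chromosomes of GRCm38 and all are annotated as protein coding. *Ednra* spans chr8:77663031-77724464 (minus strand), *Ednrb* chr14:103814625-103844402 (minus), *Agtr1a* chr13:30336441-30382867 (plus), *Adra1a* chr14:66635251-66771168 (plus), *Adra1b* chr11:43774606-43901210 (minus) and *Adra2b* chr2:127363208-127367221 (plus). *Gucy1a3* (chr3:82092427-82145789, minus) and *Gucy1b3* (chr3:82032006-82074689, minus), now called *Gucy1a1* and *Gucy1b1*, lie close to each other on the same strand. *Adm* spans chr7:110627661-110629820 (plus) and *Ace* chr11:105967945-105989964 (plus).

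RefSeq promoter windows of build GRCm38.p6 were found for 8 of the 10 genes, and none for *Agtr1a* or *Adra1a*. The 3 windows printed here, of 250 bases each, end at a RefSeq start and hold no annotated exon. They run 5' to 3' on the strand of the gene. The *Ednrb* window lies inside the gene span given above, whose 5' end is at 103844402, so it ends at an internal start. The 3 windows were chosen because *Ednrb* and *Adra2b* had some of the widest gaps between HSC-like and other cells and *Gucy1b3* had the largest fold after injury among the genes at 10 CPM or more. Capitals mark CCAAT (the nuclear factor Y motif, ATTGG on the other strand) and GGGCGG (the GC box of Sp factors, CCGCCC on the other strand).
*Ednrb*, chr14:103843702-103843951, minus: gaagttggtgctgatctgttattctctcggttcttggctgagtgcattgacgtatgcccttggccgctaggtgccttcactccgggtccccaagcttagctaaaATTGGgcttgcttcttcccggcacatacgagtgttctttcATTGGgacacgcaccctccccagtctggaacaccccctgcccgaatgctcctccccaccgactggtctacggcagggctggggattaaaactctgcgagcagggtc
*Adra2b*, chr2:127362929-127363178, plus: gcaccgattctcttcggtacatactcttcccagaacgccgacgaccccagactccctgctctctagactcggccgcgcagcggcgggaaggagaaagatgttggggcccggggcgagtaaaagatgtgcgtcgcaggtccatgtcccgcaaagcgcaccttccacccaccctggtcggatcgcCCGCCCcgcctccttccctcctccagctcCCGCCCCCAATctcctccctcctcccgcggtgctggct
*Gucy1b3*, chr3:82074712-82074961, minus: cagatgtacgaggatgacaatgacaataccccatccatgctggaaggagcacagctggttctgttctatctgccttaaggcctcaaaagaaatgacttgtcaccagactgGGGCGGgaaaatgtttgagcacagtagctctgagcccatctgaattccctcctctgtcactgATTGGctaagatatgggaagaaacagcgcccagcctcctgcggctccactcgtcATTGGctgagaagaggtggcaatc
The *Ednrb* window held CCAAT 2 times and no GGGCGG. The *Adra2b* window held CCAAT once and GGGCGG 2 times, with the second GGGCGG directly beside the CCAAT, and the *Gucy1b3* window held CCAAT 2 times and GGGCGG once. CCAAT was in 33.8% and GGGCGG in 33% of all 32536 windows of the same length, searched on both strands. ACGTG, the core of the hypoxia response element, was in 16.7% of windows and the CArG box of serum response factor in 1.48%, and neither was found in a window of these genes.

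In uninjured liver, 7 of the 10 genes had their highest droplet level in HSC-like cells, 2 in VSMC-like cells and 1 in FB-like cells. The share of all genes highest in each type was not counted, so these counts are not read as a trait of the set. Types were found by clustering these same cells, so levels by type are a description and were not tested, and HSC-like cells came from another library and isolation than the other types, which cannot be told apart from the type. Levels are summed UMIs per 1000000 with exact 95% Poisson intervals, which cover counting error only. On the plates, levels are reads per 1000000 (RPM) in each portion, meaning the wells of 1 mouse label on 1 plate with at least 10 wells of the type.

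The endothelin receptors were both highest in HSC-like cells. *Ednrb*, the endothelin receptor that binds all endothelins alike, reached 745 CPM (737–753) in uninjured HSC-like cells, whereas VSMC-like cells held 41.2 CPM (36.1–46.7) and FB-like cells held 9.56 CPM (8.26–11.01). The plates gave the same order at the top, with 2075 and 1945 RPM in the 2 HSC-like portions and 20.9 to 308 RPM in the 6 uninjured VSMC-like portions. *Ednra*, the receptor that prefers endothelin 1 and drives contraction of vascular muscle, reached 186 CPM (182–190) in HSC-like cells, whereas VSMC-like cells held 80.7 CPM (73.6–88.4) and FB-like cells held 12.2 CPM (10.7–13.8). It was at 808 and 919 RPM in the HSC-like portions and at 205 to 433 RPM in the VSMC-like portions. HSC-like and VSMC-like portions thus did not overlap for either receptor. Uninjured FB-like portions held *Ednrb* at 14.4 to 419 RPM, which overlapped the VSMC-like range.

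The angiotensin genes were split between types. *Agtr1a*, the type 1 angiotensin II receptor, reached 878 CPM (869–886) in HSC-like cells, whereas FB-like cells held 19.97 CPM (18.1–22.02) and VSMC-like cells held 12.9 CPM (10.1–16.1). Its HSC-like portions were at 1619 and 1717 RPM, and the highest of the other uninjured portions was at 188 RPM. *Ace* was the converse: FB-like cells held 86.9 CPM (82.8–91.0) and VSMC-like cells held 12.7 CPM (9.94–15.9). In 6843 HSC-like cells 0 UMIs were counted, after a gene filter that set genes seen in very few cells of a library to 0. A count of 0 allows a share of cells with a UMI of up to 0.0438%, which leaves that filter out of account. Both HSC-like portions held 0 reads of *Ace*, the 6 FB-like portions were at 11.1 to 118 RPM, and the VSMC-like portions were at 0.664 RPM or less. The receptor and the enzyme that makes its ligand therefore had their highest levels in different types in both assays.

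Each of the adrenergic receptors had a pattern of its own. *Adra2b*, an alpha-2 receptor for catecholamines, reached 224 CPM (219–228) in HSC-like cells, whereas VSMC-like cells held 9.55 CPM (7.20–12.4) and FB-like cells held 6.64 CPM (5.56–7.86). On plates its HSC-like portions were at 1011 and 965 RPM and all other uninjured portions at 82.3 RPM or less. *Adra1a*, an alpha-1 receptor that contracts vascular muscle, was highest in VSMC-like cells at 35.9 CPM (31.2–41.2), while FB-like cells held 4.91 CPM (3.99–5.97) and all HSC-like cells together held 5 UMIs. On plates it was at 17.9 to 74.7 RPM in VSMC-like and 6.89 to 76.2 RPM in FB-like portions, which overlap, and below 0.5 RPM in both HSC-like portions. *Adra1b*, another alpha-1 receptor, was at 42.8 CPM (40.9–44.7), 15.9 CPM (14.2–17.7) and 5.04 CPM (3.37–7.23) in HSC-like, FB-like and VSMC-like cells, and its plate values of 16.3 and 18.6 RPM in HSC-like portions lay within the FB-like range of 0 to 28.97 RPM.

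The guanylate cyclase subunits were shared by HSC-like and VSMC-like cells. *Gucy1a3*, the alpha subunit, reached 734 CPM (712–757) in VSMC-like cells, whereas HSC-like cells held 542 CPM (535–549) and FB-like cells held 37.2 CPM (34.6–39.97), and its plate ranges of 1040 to 1679 RPM in VSMC-like and 965 to 1116 RPM in HSC-like portions overlapped. *Gucy1b3*, the beta subunit, reached 453 CPM (447–459) in HSC-like cells, whereas VSMC-like cells held 266 CPM (253–280) and FB-like cells held 17.7 CPM (15.9–19.7), and at 847 and 669 RPM against 456 to 628 RPM on plates. *Adm*, the adrenomedullin peptide, was the gene on which the assays differed: HSC-like cells held 235 CPM (231–240) and FB-like cells held 216 CPM (210–223), and at 155 and 316 RPM in HSC-like against 148 to 633 RPM in FB-like portions, so those 2 types did not separate. VSMC-like cells were at 29.7 CPM (25.4–34.5) and 0.867 to 21.4 RPM.

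**Figure D1:**
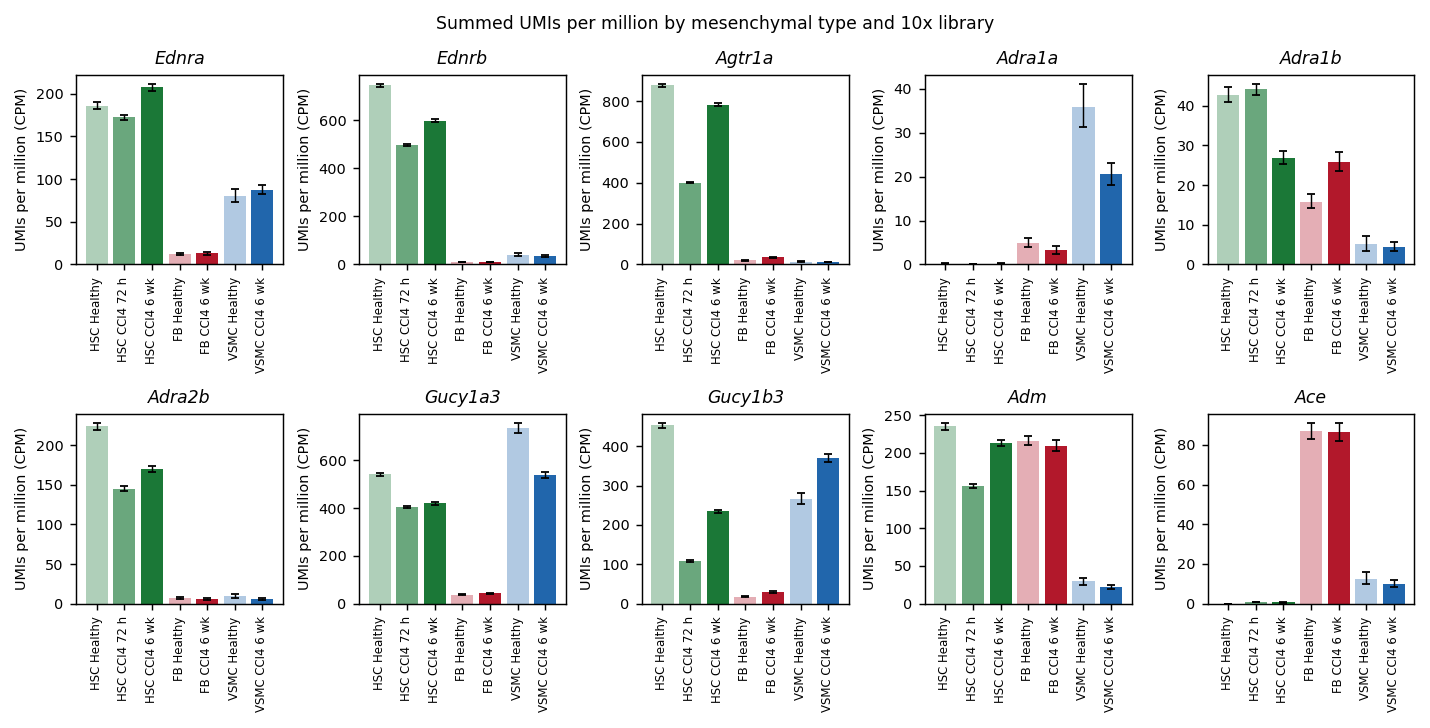
Summed UMIs per 1000000 (CPM, y axis, 1 scale per gene) of each gene in each type and droplet library, with green bars for HSC-like, red for FB-like and blue for VSMC-like cells, the palest shade for uninjured libraries, and exact 95% Poisson intervals that cover counting error only. *Ednrb*, *Agtr1a* and *Adra2b* stand almost alone in the green bars, *Ace* in the red, and *Gucy1b3* in HSC-like cells is at 453 CPM uninjured and 109 CPM at 72 h.

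The same contrast held in shares of cells at equal depth. After each cell was thinned to 2000 UMIs, which left out 115 of the 6843 uninjured HSC-like and 187 of the 4060 FB-like cells, *Ednrb* was seen in 74.2% of HSC-like and 1.19% of FB-like cells, and *Agtr1a* in 80.7% and 3.77%. Without thinning these shares were 95.8% and 2.27% for *Ednrb* and 97.3% and 8.87% for *Agtr1a*, at medians of 6717 and 4894.5 UMIs. Free RNA can give UMIs in cells that do not express a gene, so thinned FB-like shares of about this size (*Adra2b*, 1.29%) are not read as expression unless clusters of the same library differ, as they did for *Ednrb*. *Gucy1a3* and *Gucy1b3* were seen together in 37.5% of thinned uninjured HSC-like cells, where the product of their single shares was 37.0%, and *Ednra* and *Ednrb* in 22.6% against a product of 23.0%.

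After a single dose of CCl4, *Gucy1b3* and *Agtr1a* were the genes of the 10 with the largest differences in HSC-like cells. With 1 library per condition there is no replicate and no test, and a gene is counted as past the fold where it was at least 2-fold different and at 10 CPM or more in the higher library. *Gucy1b3* was at 453 CPM in the uninjured and 109 CPM (107–111) in the 72 h library, 4.16 times lower, and *Agtr1a* at 878 and 401 CPM (397–405), 2.19 times lower. These were 2 of the 8 members at 10 CPM or more, and no member was past the fold in the other direction. Over all 8377 genes at that level, 9.37% were past the fold downward and 6.86% upward.

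The position of these folds among all genes differed. The *Gucy1b3* fold of 0.240 (0.235–0.246) lay at percentile 0.680 and the *Agtr1a* fold of 0.457 (0.450–0.464) at percentile 6.88 of all folds in that comparison, where the median log2 fold was -0.22. Under trimmed-mean scaling, which shifts all folds upward, *Agtr1a* came to 0.516 and was no longer past the fold, as it was without the dividing cluster c8 (0.516), while *Gucy1b3* ranged from 0.234 to 0.271 over all alternatives. The same scaling turned the split of all genes from 575 higher and 785 lower to 753 higher and 510 lower. A sum over cells cannot tell fewer expressing cells from less RNA per cell. The share of cells with a UMI depends on both as well, so it cannot separate them either. For *Gucy1b3* that share was 57.8% in uninjured and 19.6% in 72 h cells thinned to 2000 UMIs. Unthinned it was 90.4% and 64.3%, although the median depth was 6717 UMIs in uninjured and 11280.5 UMIs in 72 h cells.

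The other receptors of HSC-like cells at 72 h lay nearer to their uninjured level. *Ednra* was at 172 CPM (fold 0.928, 0.904–0.954, and 1.05 under trimmed-mean scaling), *Ednrb* at 498 CPM (0.669, 0.659–0.678), *Adra2b* at 145 CPM (0.649, 0.632–0.667) and *Adra1b* at 44.1 CPM (1.03, 0.977–1.09). The alpha subunit *Gucy1a3* was at 406 CPM (0.750, 0.738–0.762), so the 2 subunits of guanylate cyclase differed from the uninjured library by unlike amounts. Their UMI ratio, *Gucy1a3* over *Gucy1b3*, was 1.20 in uninjured and 3.73 in 72 h HSC-like cells. *Adm* was at 156 CPM (0.663, 0.646–0.680). *Ace* had 0 UMIs counted after the gene filter in uninjured HSC-like cells and 74 UMIs at 72 h (0.882 CPM). That was 13.6-fold higher against a floor of 3 counts but below the level used for counting.

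At 6 weeks of CCl4 the same genes stood closer to the uninjured library. *Gucy1b3* was at 234 CPM (fold 0.517, 0.505–0.530), at percentile 1.67 of all folds, and *Agtr1a* was at 783 CPM (0.892, 0.879–0.905). *Ednra* was at 208 CPM (1.12, 1.09–1.15), *Ednrb* at 598 CPM (0.803, 0.791–0.816), *Adra1b* at 26.9 CPM (0.629, 0.585–0.677) and *Adra2b* at 170 CPM (0.760, 0.738–0.783). None of the 8 members at 10 CPM or more was past the fold, where 1.27% of 8087 genes were past it downward and 2.18% upward, a split of 176 higher and 103 lower that was 319 and 39 under trimmed-mean scaling. With cluster c13 counted as HSC-like, the *Gucy1b3* fold was 0.484, and with cells typed one by one 0.493, both past the threshold. Under trimmed-mean scaling *Agtr1a* and *Adm* came to 1.04 and 1.05, the other side of their uninjured levels. Both injured libraries were set against the same uninjured library, so their folds are not independent of each other. *Gucy1a3* (421 CPM, 0.777) and *Adm* (213 CPM, 0.906) were nearer to their uninjured levels than *Gucy1b3*, and the subunit ratio was 1.80.

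**Figure D2:**
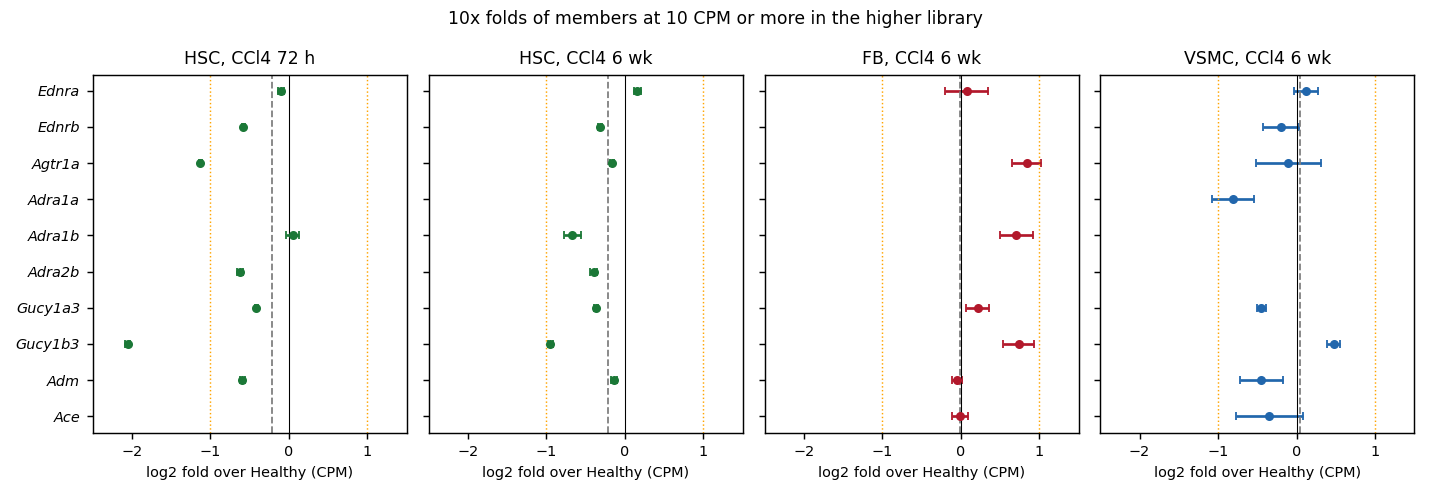
Log2 fold of each gene over the uninjured library of the same isolation (x axis, log scale) for the 4 droplet comparisons, drawn where the higher library held 10 CPM or more, with 95% counting intervals. The dashed grey line is the median of all genes and the dotted orange lines mark 2-fold, past which only *Gucy1b3* and *Agtr1a* at 72 h lie.

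Within the 72 h library the HSC-like clusters were unequal. Cluster c12 (975 cells), with the most *Ngfr* (373 CPM) and the least *Col1a1* (364 CPM) of the 72 h clusters, was at 816 CPM of *Agtr1a*, while clusters c2 (3201 cells), c8 (1441 cells, with *Mki67* at 195 CPM) and c9 (1460 cells) were at 367, 244 and 446 CPM, and the largest uninjured cluster c0 at 886 CPM. *Gucy1b3* was at 184 CPM in c12 and at 88.0 to 117 CPM in the other 3 clusters, all below the 437 to 463 CPM of the uninjured clusters c0 and c7. *Agtr1a* in c12 was thus near its level in the whole of c0, and *Gucy1b3* was not. Cluster c12 and c0 were not matched by zone. The most portal tertile of uninjured cells, by the zonation score described below, was at 1007 CPM of *Agtr1a*. *Adra2b* was highest in c9 at 240 CPM, *Adra1b* in c12 at 62.9 CPM and *Adm* in c2 at 205 CPM.

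At 6 weeks, the main HSC-like clusters c4 (2256 cells) and c5 (1997 cells) were at 780 and 816 CPM of *Agtr1a* and at 213 and 256 CPM of *Gucy1b3*. The unnamed cluster c13 was lower than HSC-like cells of that library for most of the genes. It held *Agtr1a* at 386 CPM (371–400), *Ednrb* at 303 CPM (290–315), *Adra2b* at 115 CPM (107–123) and *Gucy1b3* at 127 CPM (119–135). It was also lower for *Ednra*, at 138 CPM (129–147), *Gucy1a3*, at 302 CPM (290–315), and *Adm*, at 160 CPM (151–169). Its *Ace*, at 2.60 CPM (1.56–4.05), was above the HSC-like 0.652 CPM (0.437–0.937). Its *Adra1b*, at 23.2 CPM (19.9–27.0), overlapped the HSC-like 26.9 CPM (25.4–28.5). Its summed mesothelial markers were at 130 CPM, but 4 of the 5 markers were at 0. Those of HSC-like cells of the same library were at 23.0 CPM, with 3 of the 5 at 0. The part of such markers in these levels was not tested.

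**Figure D3:**
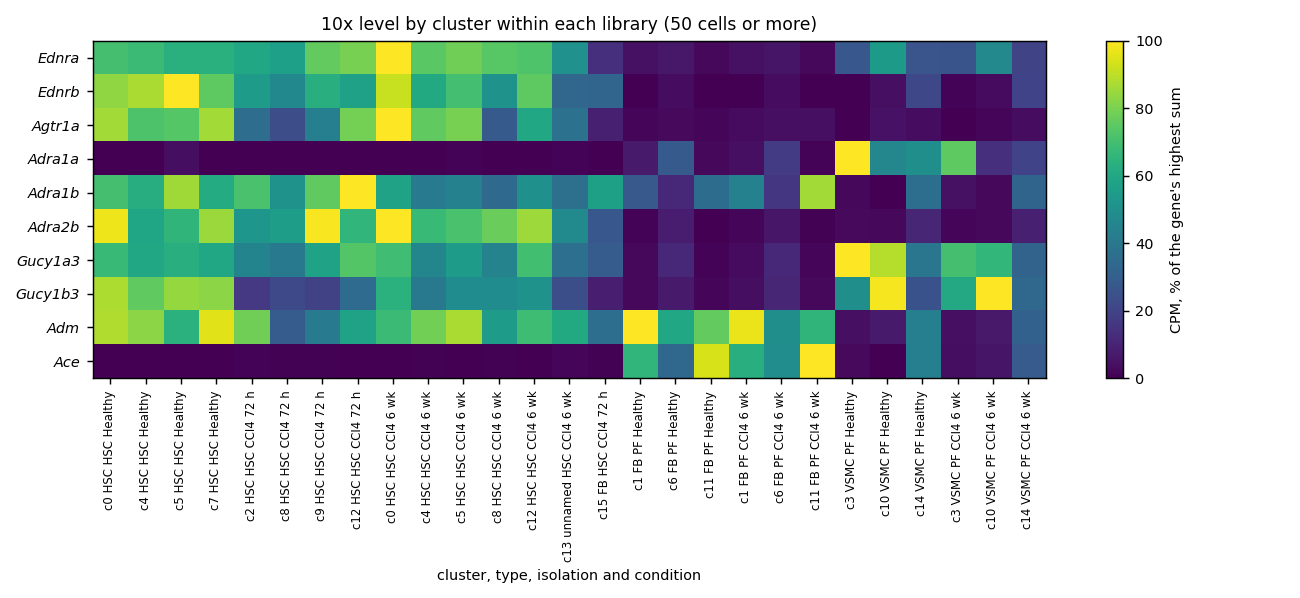
Heat map of droplet levels by cluster and library (columns, 50 cells or more), each gene (row) as a percent of its own highest sum in CPM. *Agtr1a* is bright in c12 at 72 h and dim in the other 72 h clusters, and *Gucy1b3* is dim in all of them. The VSMC-like columns are bright for *Gucy1a3* and *Gucy1b3*, and those of c3 also for *Adra1a*.

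HSC-like cells of each library were next divided into 3 equal parts (tertiles) by a zonation score, the mean level of 52 genes of portal HSCs minus that of 28 genes of central HSCs taken from the study's list. That list was made from these cells, and *Adm*, a central gene in it, was left out of the score. *Adm* was at 320 CPM in the most central, 232 CPM in the middle and 158 CPM in the most portal tertile of uninjured cells. *Adra1b* ran the other way, at 28.8, 41.0 and 57.8 CPM. *Gucy1a3* (444, 521 and 656 CPM), *Gucy1b3* (387, 446 and 522 CPM), *Agtr1a* (751, 869 and 1007 CPM) and *Ednrb* (677, 704 and 852 CPM) were also higher toward the portal end, while *Ednra* (199, 183 and 175 CPM) and *Adra2b* (225, 234 and 211 CPM) differed little.

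The ratio of portal to central levels of the guanylate cyclase subunits differed between libraries. The most portal tertile was above the most central tertile 1.35 times in uninjured, 1.99 times in 72 h and 1.75 times in 6-week cells for *Gucy1b3*, and 1.47, 1.51 and 1.74 times for *Gucy1a3*, whose ratio at 72 h was close to the uninjured one. For *Agtr1a* these ratios were 1.34, 1.70 and 1.31, and *Ednrb* at 72 h was 0.887, the reverse of its uninjured 1.26. The tertiles differed in depth at 72 h, with medians of 11799 UMIs at the central and 10134.5 UMIs at the portal end.

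Tertiles by summed fibrillar collagen (*Col1a1*, *Col1a2* and *Col3a1*) gave a steeper gradient of *Agtr1a* at 72 h than the zonation score. *Agtr1a* was at 628, 362 and 261 CPM from the lowest to the highest collagen tertile, *Gucy1b3* at 161, 92.4 and 83.9 CPM, *Gucy1a3* at 513, 387 and 341 CPM and *Ednra* at 207, 174 and 144 CPM. *Ednrb* was level, at 498, 492 and 503 CPM. In uninjured cells the *Agtr1a* tertiles were 952, 885 and 792 CPM, a narrower spread than at 72 h. These are tertiles of cells from 1 library each and were not tested, and the highest collagen tertile at 72 h was also deeper (median 12865.5 against 10006 UMIs).

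**Figure D4:**
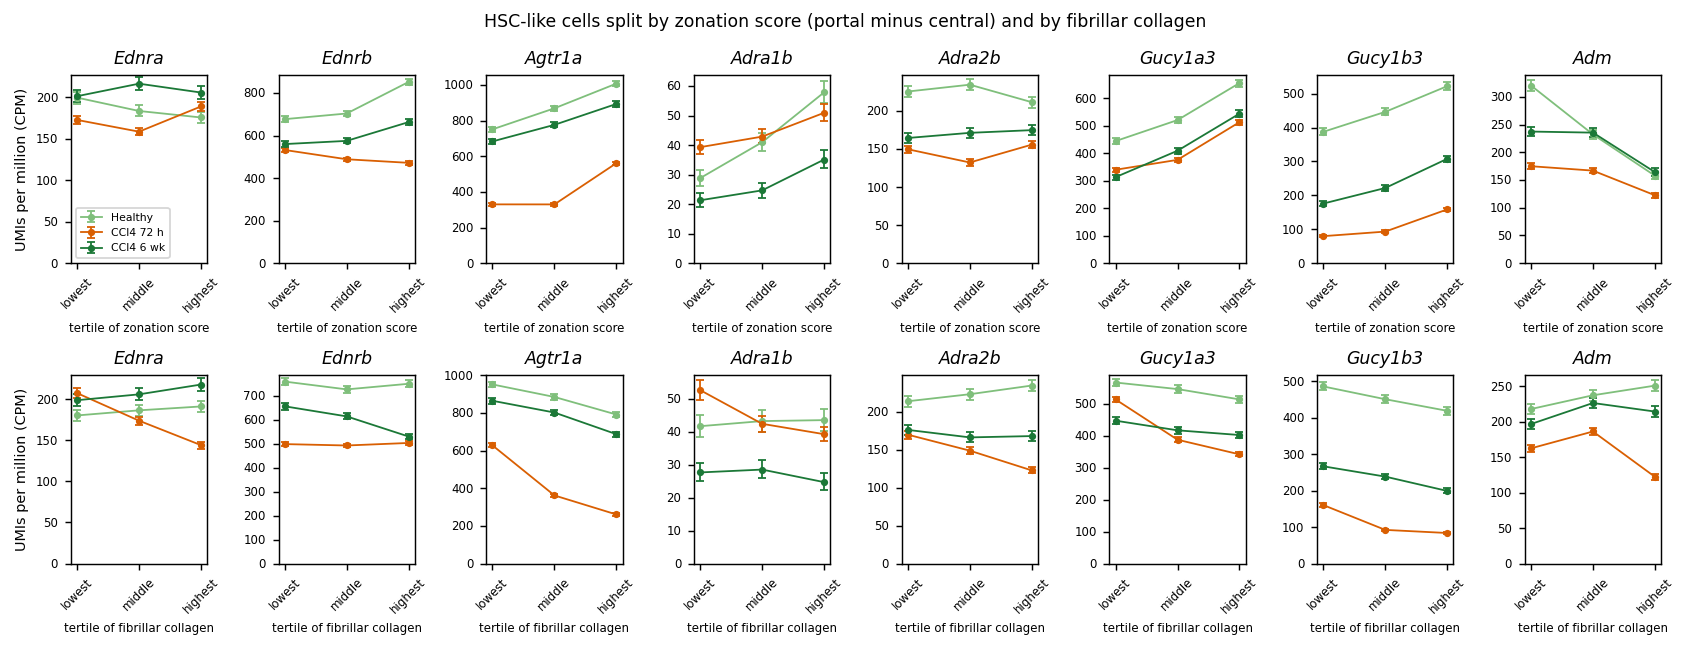
Summed UMIs per 1000000 (CPM, y axis from 0) in the lowest, middle and highest tertile of HSC-like cells by zonation score (top row, central to portal) and by fibrillar collagen (bottom row), 1 line per library with 95% counting intervals. *Adm* slopes down and *Adra1b* up toward the portal end in uninjured cells, and *Agtr1a* at 72 h runs from 628 down to 261 CPM with collagen.

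In FB-like cells, *Ace* and *Adm* were at the same level in the uninjured and 6-week libraries within counting error, and *Agtr1a* was higher at 6 weeks. *Ace* was at 86.9 and 86.3 CPM (fold 0.993, 0.926–1.07) and *Adm* at 216 and 210 CPM (0.969, 0.927–1.01). *Agtr1a* was at 19.97 and 35.7 CPM (1.79, 1.57–2.03), *Gucy1b3* at 17.7 and 29.5 CPM (1.67, 1.45–1.91) and *Adra1b* at 15.9 and 25.9 CPM (1.63, 1.41–1.89). None of the 7 members at 10 CPM or more was past the 2-fold mark, as against 1.47% of 8432 genes upward and 0.498% downward. At 2000 UMIs per cell, *Agtr1a* was seen in 3.77% of uninjured and 6.77% of 6-week FB-like cells.

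FB-like clusters differed in which members they held. Cluster c11, marked by *Pi16* (3675 CPM uninjured), had the most *Ace*, at 128 CPM uninjured and 136 CPM at 6 weeks, and its *Adra1b* was at 22.3 and 54.3 CPM. Cluster c6 held most of the FB-like *Ednrb* (32.3 and 31.4 CPM, where c1 was at 0.9 CPM in both libraries) and of *Gucy1a3* (94.9 and 93.7 CPM) and *Adra1a* (11.8 and 7.3 CPM). Cluster c1 had the most *Adm*, at 262 and 254 CPM.

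The FB-like sums also mixed clusters in unlike amounts. Cluster c1 made up 1924 of 4060 uninjured and 1604 of 2647 6-week cells, c6 1209 and 783, and c11 927 and 260. *Agtr1a* was higher in the 6-week library in each of them, at 17.4 and 31.8 CPM in c1, 24.5 and 41.2 CPM in c6, and 19.7 and 42.6 CPM in c11. *Gucy1b3* was at 11.01 and 20.5 CPM in c1 and at 37.9 and 56.5 CPM in c6.

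In VSMC-like cells the 2 guanylate cyclase subunits differed in opposite directions at 6 weeks. *Gucy1a3* was at 734 and 537 CPM (fold 0.732, 0.705–0.760) and *Gucy1b3* at 266 and 369 CPM (1.39, 1.31–1.47), so that their UMI ratio was 2.76 and 1.46. *Adra1a* was at 35.9 and 20.5 CPM (0.570, 0.475–0.685), and *Ednra* (80.7 and 87.5 CPM) and *Ednrb* (41.2 and 35.8 CPM) were near their uninjured levels. None of the 8 members at 10 CPM or more was past the fold, where 2.43% of 8216 genes were upward and 0.463% downward.

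These VSMC-like sums mixed clusters in unlike amounts. The *Higd1b* cluster c10, with *Gucy1b3* at 521 CPM uninjured and 528 CPM at 6 weeks, made up 223 of 1673 uninjured and 1049 of 3001 6-week cells. In the *Pln* cluster c3, *Gucy1b3* was at 264 and 319 CPM, *Gucy1a3* at 832 and 587 CPM and *Adra1a* at 41.8 and 31.4 CPM. Within c10, *Gucy1a3* was at 740 and 551 CPM and *Ednra* at 149 and 128 CPM. Most of the VSMC-like *Ednrb* lay in cluster c14, marked by *Tnnt2*, at 199 and 185 CPM.

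The plates gave replicate portions for FB-like and VSMC-like wells. Of 2065 wells kept, 675 were FB-like, 915 VSMC-like, 312 HSC-like and 163 unnamed, and a portion of the tested types held 5187514 to 46938444 reads. There were 6 uninjured, 4 BDL and 4 CCl4 portions of FB-like wells and 6, 5 and 4 of VSMC-like wells. All 6 uninjured portions of these types carry the same mouse label, and the study's methods count fewer uninjured liver samples on plates than there are uninjured portions. The uninjured portions may therefore be 1 mouse, and recurring BDL and CCl4 labels may also each be 1 mouse. P-values measure the spread between portions and are then too small. With portions of the same label summed, each type had 1 uninjured, 2 BDL and 2 CCl4 samples, the lone uninjured sample being assumed to vary like the others, and no member was called by edgeR. BDL and CCl4 were set against the same uninjured portions, in 1 edgeR quasi-likelihood fit per type, with Benjamini-Hochberg adjustment over all genes.

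No member passed an adjusted p of 0.05 in any of the 4 plate comparisons by edgeR. All 10 entered the FB-like test and 9 the VSMC-like test, for which *Ace* was too low. In FB-like wells the test called 0.494% of 13354 genes higher and 0.0524% lower after BDL, and 0.809% and 0.0749% after CCl4. In VSMC-like wells it called 0.222% of 13086 genes higher and 0.122% lower after BDL, and 0% after CCl4. At an unadjusted p under 0.05 there were 5 members in each FB-like comparison, 5 in VSMC-like wells after BDL and 1 after CCl4, where 9.33% and 10.1% of all genes in FB-like and 8.86% and 4.65% in VSMC-like wells were under it. DESeq2 called *Adra1a* and *Adra2b* in FB-like wells after BDL and *Ednra* in VSMC-like wells after BDL, and no other member. Of the genes to which it gave an adjusted p, DESeq2 called 2.38% and 3.46% in FB-like wells after BDL and CCl4 and 2.03% and 0.438% in VSMC-like wells. A test of whether the BDL or CCl4 difference was unlike between FB-like and VSMC-like wells called no member by edgeR, with 2 and 4 of 10 members at an unadjusted p under 0.05, where 5.21% and 6.25% of all genes were under it.

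The lowest adjusted p in VSMC-like wells belonged to *Ednra*. It was at 205, 382, 381, 392, 433 and 302 RPM in the uninjured portions of plates 1 to 6 and, after BDL, at 674 and 1281 RPM in mouse labels 1 and 2 of plate 1, at 446 and 1130 RPM in those of plate 2 and at 353 RPM on plate 4. Of the 5 BDL portions, 4 were above every uninjured portion, and the plate 4 portion was below the uninjured portion of its own plate. The log2 change was 1.20 ± 0.300, with an adjusted p of 0.118 by edgeR, and 0.616 with plate as a block. Here and below, ± is an approximate SE, the absolute log2 change divided by the square root of the edgeR F statistic. After CCl4 the portions were at 340, 352, 364 and 668 RPM, of which 1 of 4 was above the uninjured portion of its plate.

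Well clusters of unlike *Ednra* level were present in unlike shares. Cluster w3, with *Ednra* at 1038 RPM, *Ednrb* at 428 RPM and *Agtr1a* at 105 RPM, held 10.1% of uninjured, 24.2% of BDL and 16.8% of CCl4 VSMC-like wells. Its VSMC-like name was weak, and *Higd1b* was among the genes that set it most apart. The mean of its VSMC markers, each relative to its highest cluster, was 0.275, where w0, w1 and w10 were at 0.641, 0.903 and 0.769. Summed defining HSC markers were at 557 to 959 RPM in uninjured and 755 to 1411 RPM in BDL portions of VSMC-like wells. Their part in the *Ednra* values was not tested.

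*Gucy1a3* was lower than in the uninjured portion of its plate in every injured portion of both types. In VSMC-like wells it was at 1040 to 1679 RPM in 6 uninjured portions (median 1192) and at 903, 846, 884, 986 and 1058 RPM after BDL (log2 change -0.40 ± 0.139, adjusted p of 0.308 by edgeR). In FB-like wells it was at 157 to 446 RPM uninjured (median 327), at 197, 332, 63.3 and 83.9 RPM after BDL and at 143, 113, 226 and 68.1 RPM after CCl4. After CCl4, VSMC-like portions were at 966, 1073, 947 and 1188 RPM. The FB-like log2 changes were -0.92 ± 0.462 after BDL and -1.24 ± 0.468 after CCl4, with adjusted p of 0.578 and 0.307 by edgeR. The injured and uninjured ranges overlap in each of these comparisons. Injured portions of the same plate share an uninjured portion, so counts within plates, here and elsewhere, are not independent. How many of all genes were lower in every injured portion was not counted.

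*Gucy1b3* did not share that pattern in VSMC-like wells, where portions were at 456 to 628 RPM uninjured, 386 to 698 RPM after BDL and 408 to 656 RPM after CCl4. In FB-like wells it was at 26.5 to 232 RPM uninjured and at 53.5, 6.90, 50.5 and 10.6 RPM after CCl4, a log2 change of -1.88 ± 0.702 with an adjusted p of 0.302 by edgeR. *Agtr1a* in FB-like wells was at 64.6, 14.3, 71.3 and 152 RPM after CCl4, below the uninjured portion of the plate in 4 of 4 (log2 change -0.52 ± 0.548, adjusted p of 0.916 by edgeR). *Adra1b* was likewise below it in 4 of 4 (-2.42 ± 1.52, adjusted p of 0.716 by edgeR). For these 3 genes the droplet FB-like cells had the opposite direction at 6 weeks. So did *Gucy1a3*, at 37.2 CPM (34.6–39.97) in uninjured and 43.2 CPM (40.1–46.4) in 6-week droplet FB-like cells. The droplet cells were from 1 pooled library per condition, and no test bears on the difference. On plate 3 the *Gucy1b3* portions were near the uninjured 53.4 RPM, and on plate 5 they were below 43.8 RPM. Well cluster w5 held 60.3% of CCl4 and no uninjured FB-like wells. It was at 7.64, 8.70 and 0.0174 RPM of *Gucy1b3*, *Agtr1a* and *Adra1b*. Without w5 the log2 change of *Agtr1a* after CCl4 was 0.32. Those of *Gucy1b3* and *Adra1b* were at most -1.15 and -1.53 in every edgeR alternative. The part of w5 in these differences was not tested.

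*Adra1a* had the largest fitted difference among members in FB-like wells. It was at 38.3, 49.0, 13.5, 6.89, 17.0 and 76.2 RPM in uninjured portions, at 2.15, 0.128, 1.75 and 0 RPM after BDL and at 7.64, 0, 0 and 1.44 RPM after CCl4. The BDL portions were all below the uninjured ones, and the highest CCl4 portion overlapped the lowest uninjured one. The log2 changes of -5.02 ± 1.65 and -3.86 ± 1.55 had adjusted p of 0.253 and 0.354 by edgeR, and DESeq2 gave 0.00577 for BDL. *Adra2b* was likewise at 15.02 to 82.3 RPM uninjured and at 0.0797, 6.53, 7.09 and 0 RPM after BDL (log2 change -3.64 ± 1.27, adjusted p of 0.297 by edgeR and 0.0211 by DESeq2). How many of all genes had BDL portions all below the uninjured ones was not counted.

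Shares of FB-like well clusters moved with these values. Cluster w6, with *Adra1a* at 29.4 RPM and *Adra2b* at 57.5 RPM, held 48.8% of uninjured, 2.098% of BDL and 21.0% of CCl4 FB-like wells, and w5, with both at or below 0.5 RPM, held 60.3% of CCl4 and none of the 170 uninjured wells. Cluster w4, with *Ace* at 249 RPM and *Ednra* at 125 RPM, held 44.8% of BDL and 9.41% of uninjured wells. The 5 cholangiocyte markers summed to 8.78 to 27.1 RPM in uninjured, 394 to 2176 RPM in BDL and 107 to 918 RPM in CCl4 portions, none of the 5 being at 0 throughout after BDL, and mesothelial markers to 30.2 to 161, 85.6 to 378 and 246 to 758 RPM. Their part in the FB-like differences was not tested.

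*Ace* was higher in 3 of 4 FB-like BDL portions than in the uninjured portion of the plate. The uninjured portions were at 99.2, 11.1, 98.2, 118, 118 and 49.6 RPM and the BDL portions at 151, 325, 114 and 280 RPM, with 1 of them inside the uninjured range (log2 change 1.40 ± 0.477, adjusted p of 0.274 by edgeR). After CCl4 they were at 65.2, 124, 102 and 134 RPM. *Adm* was lower than the uninjured portion of the plate in 4 of 4 BDL and 4 of 4 CCl4 portions of FB-like wells, with 148 to 633 RPM uninjured, 26.8 to 204 RPM after BDL and 62.3 to 299 RPM after CCl4 (log2 changes -1.42 ± 0.554 and -1.26 ± 0.550, adjusted p of 0.388 and 0.429 by edgeR).

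Ranges of *Ednrb* and *Agtr1a* overlapped between conditions in both types. *Ednrb* in FB-like wells was at 14.4 to 419 RPM uninjured, 15.1 to 213 RPM after BDL and 0 to 49.5 RPM after CCl4, and in VSMC-like wells at 20.9 to 308, 154 to 460 and 59.4 to 354 RPM. *Agtr1a* in FB-like wells was at 43.8 to 188 RPM uninjured, 31.7 to 93.7 RPM after BDL and 14.3 to 152 RPM after CCl4. In VSMC-like wells it was at 0.153 to 32.7 RPM uninjured and 4.93 to 111 RPM after CCl4 (log2 change 2.31 ± 0.921, adjusted p of 0.974 by edgeR). *Adra1b* stayed below 30 RPM in every portion. In VSMC-like wells it was at 6.03 to 11.8 RPM in the 6 uninjured portions and at 1.53, 1.86, 1.72, 2.13 and 2.35 RPM after BDL (log2 change -2.15 ± 0.967, adjusted p of 0.503 by edgeR). The BDL portions were all below the uninjured ones, a difference that did not pass the test, and the CCl4 portions, at 0 to 20.1 RPM, spanned the uninjured range. How many of all genes had portions separated in this way was not counted.

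**Figure D5:**
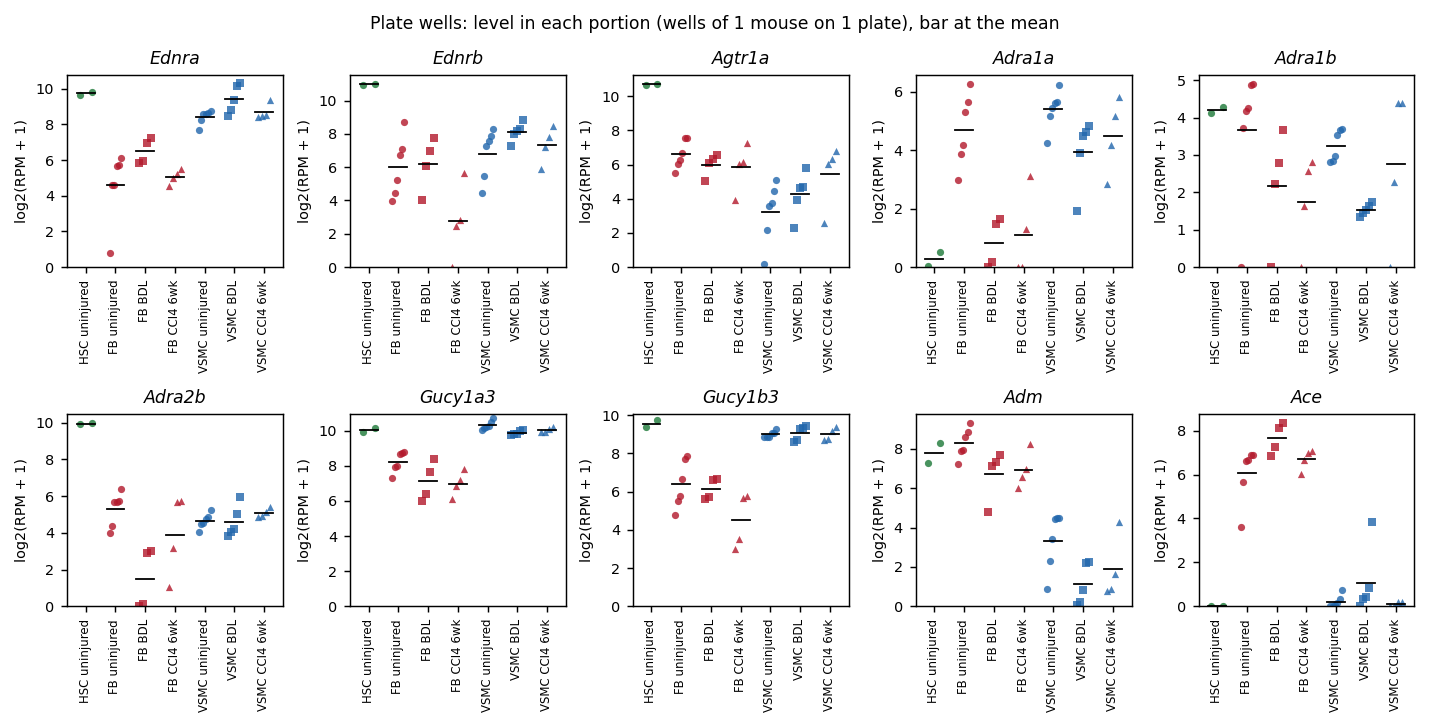
Level of each gene in each plate portion as log2(RPM + 1) (y axis), by type and condition, with circles for uninjured, squares for BDL and triangles for CCl4 portions and a black bar at the mean of the logged values. BDL squares of *Ednra* in VSMC-like wells sit mostly above the circles, FB-like *Adra1a* is at 6.89 to 76.2 RPM uninjured and at most 2.15 RPM after BDL, and HSC-like circles of *Agtr1a* and *Adra2b* stand far above both other types.

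Other genes of the same pathways were read from a list of 39 genes chosen with the members. In HSC-like cells at 72 h, 15 were at 10 CPM or more, of which 1 was past 2-fold upward and 4 downward. Of all genes at that level, 6.86% were past it upward and 9.37% downward. *Calcrl*, the receptor that adrenomedullin uses, was at 374 CPM uninjured and 107 CPM at 72 h, and its partner *Ramp2*, which gives it preference for adrenomedullin, was at 146 and 322 CPM. *Prkg1*, the kinase that cyclic GMP activates, was at 28.9 and 9.99 CPM and *Gucy1a2*, another alpha subunit, at 16.01 and 4.66 CPM. *Pde3a*, a cyclic nucleotide phosphodiesterase, was at 139 and 72.9 CPM, and *Ece1*, which makes mature endothelin, at 218 and 130 CPM. At 6 weeks none of 15 genes was past the fold in HSC-like cells, where 2.18% of all genes were past it upward and 1.27% downward. *Calcrl* was then at 206 CPM and *Ramp2* at 237 CPM.

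The PF libraries had their own pathway genes past the fold. In VSMC-like cells 2 of 15 genes were past it upward and 1 downward at 6 weeks, where 2.43% and 0.463% of all genes were. *Enpep*, an aminopeptidase that trims angiotensin II, was at 21.5 and 63.1 CPM in the uninjured and 6-week libraries, and *Calcrl* was at 20.1 and 9.93 CPM. In FB-like cells 1 of 15 was upward, *Agt*, the precursor of angiotensin, at 6.24 and 13.7 CPM. None was downward, where 1.47% of all genes were upward and 0.498% downward. On plates, 25 pathway genes could be tested among FB-like portions and 26 among VSMC-like portions, and edgeR called none in the 4 comparisons. At an unadjusted p under 0.05 by edgeR there were 3, 6, 2 and 1, where 9.33%, 10.1%, 8.86% and 4.65% of all genes were under it. DESeq2 called 0, 4, 0 and 0 of them, and 2.38%, 3.46%, 2.03% and 0.438% of all genes to which it gave an adjusted p.

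The genes most like each member across the 31 plate sums of a portion and type, among 7578 genes at 20 RPM or more on average, were found by Pearson's r of log2(RPM + 1). This is a description over sums that share plates and, within a type, cells of like origin. *Gucy1b3* was among the 3 genes nearest to *Gucy1a3* (r = 0.93), as was *Pde3a* (0.93), and *Gucy1b3* itself was nearest to *Pde1a* (0.94). *Ednra* was nearest to *Apold1* (0.89), *Ednrb* to *Ehd3* (0.78), *Agtr1a* to *Arhgap24* (0.81), *Adra2b* to *Lifr* (0.82) and *Adra1a* to *Tacc2* (0.78). *Adm* was nearest to *Lpar1* (0.91), a receptor for lysophosphatidic acid, and *Ace* to *Fxyd6* (0.96). Between members, r ran from -0.90 for *Gucy1a3* and *Ace* to 0.93 for the 2 cyclase subunits.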

How the data were processed

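Members and gene lists were chosen with earlier results of these data known. For the droplet libraries the authors used the 3' v2 kit, aligned to mm10 with Cell Ranger 2.1.0 and deposited UMI counts per cell without normalization. For the plates the authors aligned to mm10 with STAR and deposited read counts per gene and well. Cells under 300 genes or over 30% mitochondrial UMIs were left out, and wells beyond 3 median absolute deviations of reads, genes or spike-in share. Cells were clustered (2000 variable genes, 10 components, 30 neighbours, Leiden resolution 0.8, leidenalg 0.10.2) and clusters named from markers. Folds set a count of 0 to 3. Plate counts were summed per portion and tested with edgeR 4.0.16 (quasi-likelihood, R 4.3.3), DESeq2 1.42.0 being an alternative, and edgeR was tested on simulated data. All 10 genes are named, with the 3 most similar genes for members at 20 RPM or more, and pathway genes at 10 CPM or more, apart from some that are counted but not reported here. The mouse labels recur between plates, and the study's methods count fewer uninjured samples than there are uninjured portions, so portions of 1 label may be 1 mouse. Correlations of deviations within a plate were -0.042 to 0.14 in FB-like and -0.033 to 0.041 in VSMC-like portions. Positions are from GENCODE on GRCm38 and promoters from RefSeq. Alternatives were scaling, thresholds, doublets, clusters, plate as a block and leaving out portions, of which those on c8, c13, w5, w9, marker-bearing wells, summed mouse labels and the difference between types were added after seeing the data.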

Additional observations from a re-analysis of the deposited data

Results flagged for a closer look

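Across 60 groups of 4 to 6 plate portions of the 10 genes, 5 held a portion far from the rest by Dixon's ratio. Chance flags about 1 in 20 groups where values are normally distributed and groups are independent. RPM values were used without logs, groups shared portions, and all 5 flagged portions were the highest of their group. That rate need not hold here. *Ednrb* in FB-like wells was at 419 RPM in the uninjured portion of plate 6 (next 136 RPM) and at 49.5 RPM in CCl4 mouse label 2 of plate 3 (next 6.11 RPM). In VSMC-like wells, CCl4 mouse label 2 of plate 5 stood apart for *Adm*, at 18.2 RPM (next 2.12 RPM), and for *Ednra*, at 668 RPM (next 364 RPM), and it was the portion with the fewest wells of its group (23). *Ace* in VSMC-like wells was at 13.1 RPM in BDL mouse label 2 of plate 1 and at no more than 0.759 RPM in the other BDL portions. The causes were not tested. An edgeR test of the difference between FB-like and VSMC-like wells in their response to BDL or CCl4, with the portion as a block, called no member. It called 8 and 10 of 14617 genes over 14 portions, with the lowest adjusted p of 0.807 and 0.685 among members and 2 and 4 of 10 members at an unadjusted p under 0.05, where 5.21% and 6.25% of all genes were under it.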

How the results depend on the processing

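The total of droplet genes past 2-fold in each comparison stayed within 1.5 times under every alternative run, but trimmed-mean scaling moved the lower genes in HSC-like cells at 72 h from 785 to 510 and, at 6 weeks, the higher from 176 to 319 and the lower from 103 to 39. Of the 10 members, 7 were highest in HSC-like cells without doublets, without marker-bearing cells, after thinning and with cells typed one by one. Here too the share of all genes was not counted. Plate counts moved more. With plate as a replicate block, called genes numbered 9 against 73 without it in FB-like wells after BDL, 12 against 118 after CCl4, 1 against 45 in VSMC-like wells after BDL and 0 against 0 after CCl4, and no member changed its call. With portions of the same mouse label summed, edgeR called 8, 13, 0 and 0 genes in these 4 comparisons. DESeq2 called 315, 457, 254 and 57 genes. Without wells that held 3 or more markers of a non-mesenchymal type, FB-like counts were 33 and 64, and without cluster w5 they were 24 and 1. Leaving out 1 portion at a time gave 29 to 68, 60 to 137, 13 to 54 and 0 to 1. No member was called by edgeR in any of 856 combinations of member and setting. The cause of these moves was not tested.

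Some log2 changes that were not called turned direction. In FB-like wells after BDL, *Ednrb* was at 0.58 with the block, 0.65 with labels summed and 0.10 with cluster w9, and -0.83 to 0.77 over left-out portions. After CCl4, *Ednra* was at 0.46 with the block, 0.023 with wells typed one by one, 0.048 without marker-bearing wells, 0.17 without w5 and -0.41 to 0.10 over left-out portions, *Ace* was at -0.045 with the block, and *Agtr1a* and *Adra2b* were at 0.32 and 0.18 without w5. In VSMC-like wells, *Agtr1a* after BDL was at -0.012 with wells typed one by one, and left-out portions gave *Adra2b* -0.31 to 0.32 after BDL and, after CCl4, *Ednrb* -0.12 to 0.65, *Adra1b* -0.14 to 0.75 and *Gucy1b3* -0.11 to 0.13. Single libraries per droplet condition and few portions limit what could be called.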

Other observations

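Cells outside the main types also held some of these genes. Cluster c15 held 168 cells in the HSC library at 72 h, with *Col1a1* at 6650 CPM. Its FB-like name was weak. The mean of its FB markers, each relative to its highest cluster, was 0.195, where c1, c6 and c11 were at 0.9, 0.661 and 0.824. Cluster c15 was at 301 CPM of *Ednrb*, 241 CPM of *Gucy1a3* and 90.1 CPM of *Agtr1a*. FB-like cells of the uninjured PF library, of another isolation and condition, were at 9.56 and 37.2 CPM of *Ednrb* and *Gucy1a3*. Cluster c15 held 0.8 CPM of *Ace*, which among the types was highest in FB-like cells. On the plates, the unnamed well clusters w11 and w12 were at 234 and 92.7 RPM of *Agtr1a* and at 0.3 RPM of *Ednra*, and well cluster w10, counted as VSMC-like, was at 1294 RPM of *Ednrb* and 97.3 RPM of *Adra2b*. *Edn1*, the gene of endothelin 1, was at 0.388 CPM in uninjured, 7.20 CPM in 72 h and 1.71 CPM in 6-week HSC-like cells and at 14.1 and 23.7 CPM in uninjured and 6-week FB-like cells.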
